A study of Homo sapiens with 6 samples.

Results

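The cytosolic ribosomal protein genes encode the protein parts of the ribosome that translates nuclear mRNAs. They were taken from the deposited gene table by symbol, as protein-coding genes named RPL or RPS with a number, together with RPLP0, RPLP1, RPLP2 and RPSA. The kinases named RPS6K and the Y-linked copies RPS4Y1 and RPS4Y2 were left out. The rule found 84 of the 58884 genes of the table, 32 of the small subunit and 52 of the large subunit, and it used no measured value. Of these, 82 had enough counts to be tested among 16059 genes. RPL3L had at most 3 counts in a library and RPL10L had 0 in each, so neither was tested, and a count of 0 allows up to 3 counts.

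The samples were 3 libraries of DLD1 parental cells and 3 of p85β KR-AA cells, in which DLD1, a line from a colorectal cancer, carries K477A and R478A in p85β by title and genotype. The source names of mutant replicates 2 and 3 give another position for the second change, and these libraries were grouped by title and genotype. p85β is a regulatory subunit of PI3K, and the comparison asked how gene expression differed when its nuclear localization signal was mutated. Both groups carry the helical domain mutation of PIK3CA found in DLD1 cells. The knock-in cells were selected as clones, and no label ties a library to a clone or says that the libraries came from separate cultures, so p-values measure the spread between these libraries only, which may be technical. PIK3R2, the gene for p85β, ranged from 12.3 to 34.8 CPM in parental and from 4.54 to 16.6 CPM in mutant libraries, with overlap (log2 fold change -0.93, edgeR adjusted p = 0.0558). A count cannot show the edited bases.

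Ribosomal proteins are made in nearly equal numbers, assembled with ribosomal RNA in the nucleolus and degraded when they stay unassembled. Most of their mRNAs begin with a C followed by a run of pyrimidines, the terminal oligopyrimidine tract, through which PI3K, AKT and mTORC1 signalling sets how well they are translated, with LARP1 as the repressor that binds it. In a growing cancer cell line these mRNAs are among the most abundant of all.

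The libraries held 20301932 to 20873475 counts in parental cells and 20301396 to 26712816 in p85β KR-AA cells. Levels are given as CPM, with the library total scaled by the TMM factor of edgeR, and 1 count was worth 0.0273 to 0.0728 CPM. The TMM factors were 0.677 to 0.777 in the parental libraries and 1.35 to 1.41 in the mutant libraries. With library totals in their place, the median log2 fold change of all genes moved up by 0.92 from its value of 0.32, so directions are also given relative to the median gene. The groups stood far apart in cell type markers. Of 10 markers of colon epithelium, 10 were over 1 CPM in every parental library and 9 in every mutant library, and their summed level was 57230 to 79262 CPM against 8812 to 10313 CPM. KRT8, KRT18 and KRT19 made up most of this sum and were lower, while CDH1 and CDH17 of the same list were higher in mutant cells. Of 11 mesenchymal markers, 3 were over 1 CPM in every parental library and 7 in every mutant library, summing to 7.65 to 10.5 CPM in parental and 6330 to 7240 CPM in mutant libraries, of which VIM and FN1 made up most, while COL1A2 and THY1 had at most 1 count in each library. Of 5 blood markers, only CD68 was over 1 CPM in either group. The part of these differences in the results on ribosomal protein genes was not tested, and in bulk RNA fewer cells of a type and less RNA per cell cannot be told apart.

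The start of the mRNA is shown for 7 of the members, since it is the feature the family shares. The lines give 6 bases before the annotated start and 24 from it on, 5′ to 3′ in the strand of the gene, from RefSeq on GRCh38.p14, and the capitals mark the C at the start with the pyrimidines that follow it. RPL35, RPS9 and RPL28 were among the members that fell most, RPL39 had overlapping levels, and RPS24, RPL11 and RPS7 were higher in mutant cells. For RPL11, which has more than one start in the table, the start with the longest run is given.
RPL35 (chr9:124861934-124861963, minus strand): tacttcCTCTTTCCCTCggagcgggcggcg
RPS9 (chr19:54200852-54200881, plus strand): ccgcgcCTCTTTCTCagtgaccgggtggtt
RPL28 (chr19:55385926-55385955, plus strand): gccttcCTCTTTCCgtctcaggtcgccgct
RPL39 (chrX:119791607-119791636, minus strand): cagcttCCCTCCTCTTCCTTTCTCCgccat
RPS24 (chr10:78033857-78033886, plus strand): gtggttCTCTTTTCCTCCTTggctgtctga
RPL11 (chr1:23691800-23691829, plus strand): cgctttCTCTTCCTgctctccatcatggcg
RPS7 (chr2:3575254-3575283, plus strand): ctcctcCTCgcgctgtttccgcctcttgcc

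A long tract stood at the start of members that were lower and of members that were higher. Counting as a tract a C at the start with at least 4 pyrimidines after it, on the strand of the gene, 47 of the 67 members in the promoter table had one, or 70.1%, against 6.34% of 15263 tested genes in that table. Of the 47, 39 were lower in p85β KR-AA cells, 2 were higher and the others did not pass. Of all 82 tested members, with or without a tract, 78.0% were lower and 4.88% higher, and of all tested genes 32.7% and 41.6%. The median log2 fold change was -1.30 with the tract and -1.03 without it. RPS7 does not meet the rule, since only 2 pyrimidines follow its C. The other 17 members, RPS2 and RPL8 among them, are not in the promoter table. Over the 300 bases from 250 before to 50 after the start, on either strand, the ETS-type motif CCGGAAG stood in 35.8% of members and 16.8% of genes, the YY1-type motif AAGATGG in 13.4% and 7.96%, the GC box GGGCGG in 58.2% and 65.2%, and TATAAA in 10.4% and 12.4%. These are matches of letters and no evidence of binding.

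Most cytosolic ribosomal protein genes were lower in p85β KR-AA cells on the TMM scale. At an adjusted p under 0.01 by edgeR's quasi-likelihood test with Benjamini-Hochberg adjustment over all tested genes, 64 of the 82 were lower, against 32.7% of all tested genes, 4 were higher, against 41.6%, and 14 did not pass. The median log2 fold change of the members was -1.27, with the middle of the list between -2.19 and -0.57 and a full range from -3.29 to 3.28, against 0.32 for all genes. With a fold of at least 3 in addition, the thresholds of the study, 34 members were lower, against 17.6% of all genes, and 1 was higher, against 28.6%. Levels did not overlap between the groups in 68 members that were lower, against 36.5% of all genes, and in 6 that were higher, against 47%.

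The scale decided part of this. With library totals 39 members were lower, against 17.9% of all genes on that scale, and 19 higher, against 57.9%, and 10 of the 64 lower members had a fold change above 0, RPL5 and RPS6 significantly so. Relative to the median gene, 77 of the 82 members lay below it on both scales. The members' median was lower than that of all genes by 1.59 with TMM and 1.58 with library totals on the log2 scale. The change between these scales moves all genes by nearly the same amount, so this likeness was fixed in advance and is no added support. Gene length and GC content also differ between members and other genes. Ribosomal protein mRNAs are short, and the 1536 other tested genes of at most 1000 bases had a median log2 fold change of -1.11, with 56.4% of them lower, close to the median of the members. In a fit with offsets for length and GC content, 65 members were lower, against 37.1% of all genes, and 6 higher, against 26.8%, and their median of -0.99 was below that of all genes, -0.14. With offsets for length alone, 46 were lower, against 37.6% of all genes, and 15 higher, against 31.1%. The median was then -0.60 for the members and -0.09 for all genes. Below the median gene lay 69 members with both offsets and 50 with length offsets alone. Both offset fits used the deposited gene length, which for some members is well above the size of the main mRNA. RPL37, with 7573 bases, had a log2 fold change of -0.20 with TMM and did not pass. It came to -2.81 and passed as lower with both offsets, so the counts of these fits depend on such lengths. A total of 37 members were lower with TMM, with library totals and with both offsets, and 3 were higher in all 3 of these fits.

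**Figure D1:**
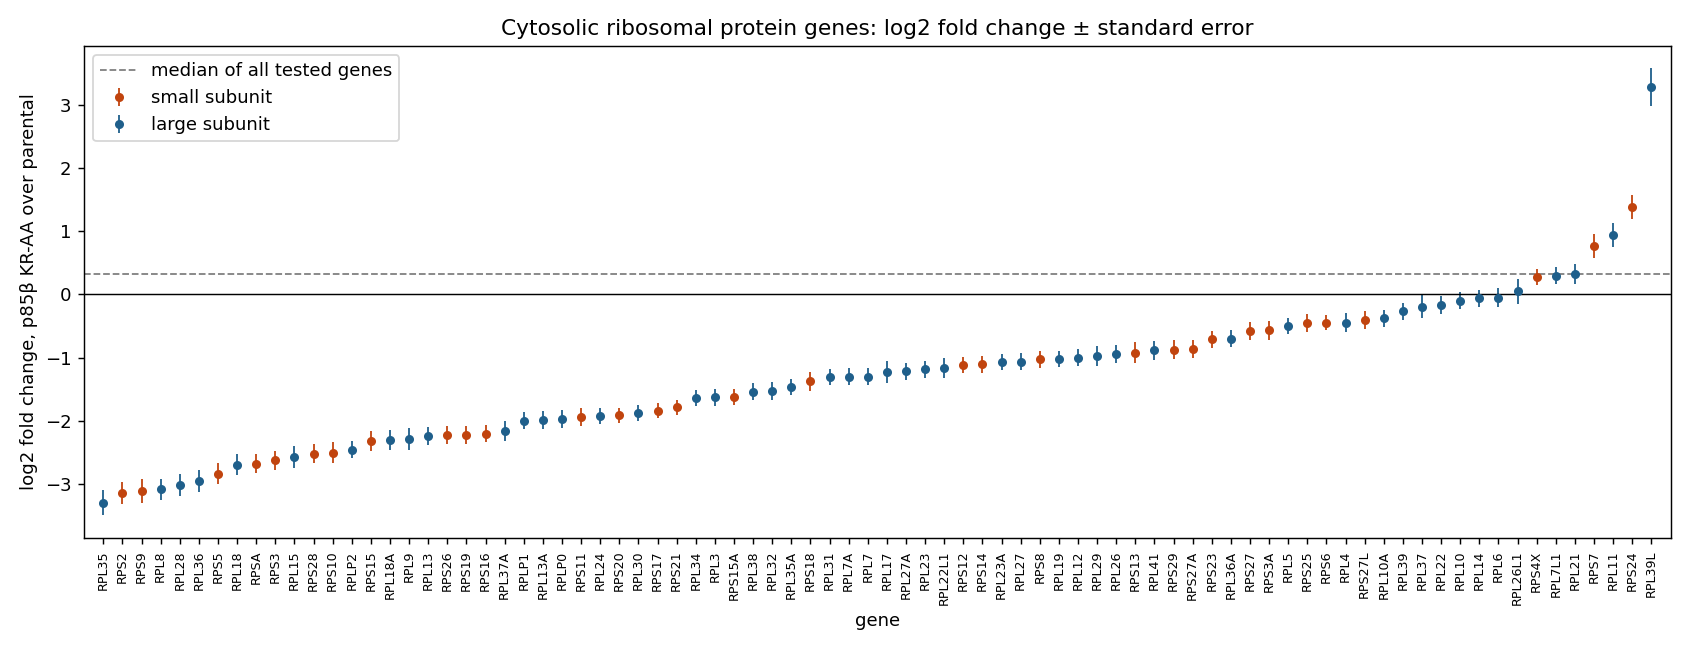
Log2 fold change of p85β KR-AA over parental cells for the 82 tested ribosomal protein genes, in order, with small subunit genes in orange and large subunit genes in blue and bars for ±1 standard error. The solid line marks 0 and the dashed line the median of all tested genes, 0.32, and 74 of the 82 points lie below 0 on this TMM scale.

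As a share of all counts in a library, which is the scale of library totals, the members took 15.7%, 18.5% and 16.2% in parental libraries and 8.88%, 8.58% and 8.77% in mutant libraries. The groups did not overlap, and the mean fell from 16.8% ± 1.52 to 8.75% ± 0.155 (SD, n = 3 each), a ratio of 0.520 (exact permutation test, two-sided, p = 0.1, the smallest p that 3 against 3 libraries allow). Small subunit genes went from 7.37% ± 0.753 to 3.33% ± 0.0495 and large subunit genes from 9.44% ± 0.779 to 5.42% ± 0.112 (SD, n = 3 each). The small subunit thus took 43.8% of member counts in parental cells and 38.0% in mutant cells. RPS2, a small subunit gene, alone went from 13.3% to 5.59% of member counts. This fall was larger than that of the subunit, so the shift need not hold across the subunit. By the share each gene took of the library, 42 members were lower without overlap, against 21.8% of all genes, and 21 were higher without overlap, against 64.3%. Counts per length, which weigh short genes more, gave a share of 27.4% ± 1.46 and 19.1% ± 0.254 and a ratio of 0.695.

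**Figure D2:**
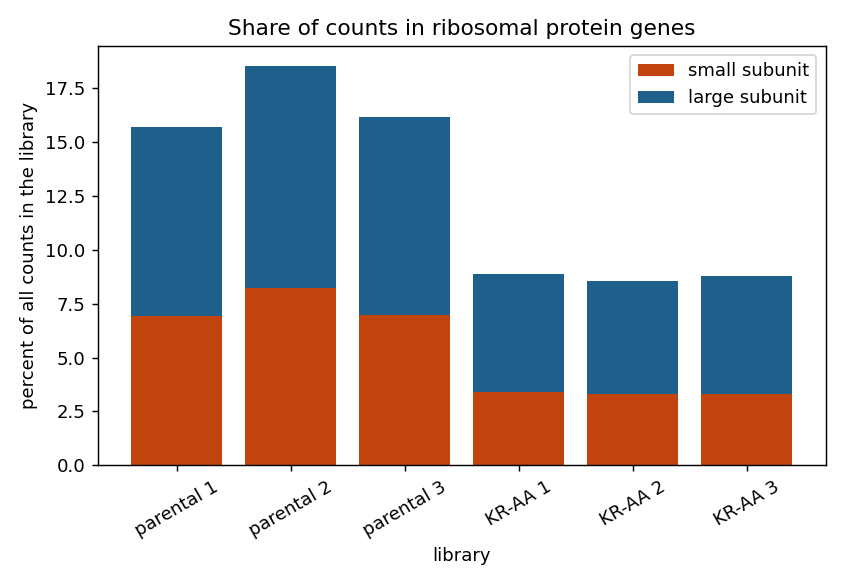
Percent of all counts in each of the 6 libraries that fell in ribosomal protein genes, with the small subunit stacked below the large subunit. The 3 parental bars reach 15.7% to 18.5% and the 3 mutant bars 8.58% to 8.88%.

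The levels of the family drew together, and its counts were less concentrated in the most abundant members of each library. RPS2 alone took 13.3% ± 1.23 of member counts in parental cells and 5.59% ± 0.242 in mutant cells (SD, n = 3 each). The 5 members with most counts in each library took 33.0% ± 1.65 and 20.8% ± 0.530 (SD, n = 3 each). These were not the same genes in both groups, since RPL8 and RPSA were among them in parental and RPL4 and RPL3 in mutant libraries. On the log2 scale of counts per length, the SD over the 77 members other than the paralogs named L or L1 was 1.71 ± 0.103 in parental and 1.10 ± 0.0310 in mutant libraries, and with the length of the annotated canonical transcript in place of the deposited length it was 1.68 ± 0.0906 and 1.19 ± 0.0202 (SD over 3 libraries each). Each of these differences had a permutation p of 0.1, exact and two-sided. On the TMM scale, the number of members with a group mean over 1000 CPM was 56 in parental and 18 in mutant cells. This number depends on the scale and does not measure how far the levels spread.

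The 5 members with the lowest fold changes were RPL35, RPS2, RPS9, RPL8 and RPL28. RPL35, a large subunit protein near the exit of the peptide tunnel, had 5815, 8590 and 4716 CPM in the parental libraries and 639, 626 and 687 CPM in the mutant libraries. All 3 mutant libraries lay far below the lowest parental library, and the log2 fold change was -3.29 (standard error 0.20, edgeR adjusted p = 1.78e-08). RPS2, a small subunit protein at the channel through which mRNA enters, had 29728, 39374 and 24940 CPM in parental and 3565, 3576 and 3509.5 CPM in mutant libraries. The mutant libraries were nearly alike while the parental ones spread widely, and the log2 fold change was -3.14 (standard error 0.18). RPS9, which sits at the same entry channel, went from 5617, 8063 and 4806 CPM to 660.4, 702 and 778 CPM. RPL8, a large subunit core protein, went from 13611, 17009 and 11743 CPM to 1612, 1562 and 1821 CPM. RPL28, a large subunit protein particular to eukaryotes, went from 4482, 5759 and 3534 CPM to 571, 539.8 and 597 CPM. In each of these genes parental replicate 2 was highest and replicate 3 lowest, and no mutant library reached a parental one. Relative to the median member their log2 fold changes were -2.03 to -1.75, with library totals they were -2.35 to -2.07, and with offsets for length and GC content they were -1.64 to -0.91. RPL28 overlaps UBE2S on the opposite strand, which had 34.1% as many counts, and no source says that counting used the strand.

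Levels between genes can be compared only per length. On the scale of TPM, counts per length scaled to the same sum in every library, RPS2 had 32557 in parental libraries, the highest of the members there, and 9749 in mutant libraries. RPL13A, a large subunit protein also known for silencing certain mRNAs outside the ribosome, had 15030 and 9942, RPL8 had 14407 and 4470.5, RPL35 had 13765 and 3731, and RPSA had 10468 and 4300.4. RPL13A was therefore about level with RPS2 in mutant cells, where RPS2 had been far above every other member in parental cells. In CPM, RPSA, the small subunit protein also known as the laminin receptor, fell from 10575, 12705 and 9544 to 1648, 1601 and 1889, a log2 fold change of -2.68 (standard error 0.15). RPL13A fell from 9436, 11748 and 8954 CPM to 2489, 2438 and 2666 CPM, a log2 fold change of -1.99 (standard error 0.14). The deposited lengths of some members, such as RPL37 with 7573 bases and RPS24 with 2712, are well above the size of their main mRNA, so their level per length is understated.

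**Figure D3:**
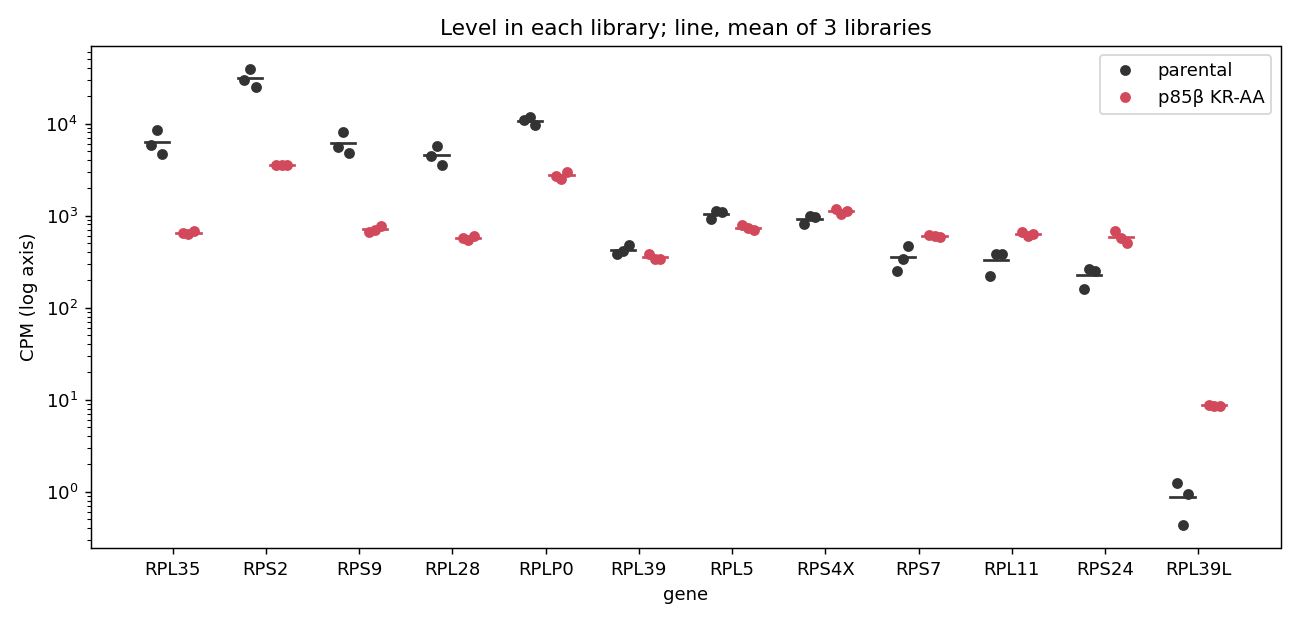
CPM of 12 ribosomal protein genes in each library on a log axis, with parental libraries in black, mutant libraries in red and a line at the mean of 3 libraries. The levels of the 5 genes on the left separate by several fold, those of RPL39 overlap, and the 4 on the right are higher in every mutant library.

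The P stalk, the flexible arm of the large subunit that recruits and activates translation factors, was lower in all 3 of its proteins. RPLP0, its base, went from 10857, 11655 and 9687 CPM to 2697, 2514 and 3003 CPM, a log2 fold change of -1.97 (standard error 0.14). RPLP1 went from 4236, 4826 and 3882 CPM to 1047, 1078 and 1121 CPM, a log2 fold change of -2.00 (standard error 0.13). RPLP2 went from 2811, 3404 and 2643 CPM to 538, 522 and 553 CPM, a log2 fold change of -2.46 (standard error 0.14). None of the 3 overlapped between groups, each was also lower with library totals, and with offsets for length and GC content the log2 fold changes were -1.20, -1.89 and -0.82. RPLP0 is often used as a reference gene for qPCR, and in these libraries it differed by 3.92-fold on the TMM scale.

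The pair of proteins that carry the 5S ribosomal RNA, RPL5 and RPL11, moved in opposite directions on the TMM scale. Outside the ribosome these proteins bind and inhibit MDM2, the ligase that degrades p53. RPL11 had 219.99, 380.3 and 387 CPM in parental and 669, 606 and 623 CPM in mutant libraries. Every mutant library lay above every parental library, and the log2 fold change was 0.94 (standard error 0.19, edgeR adjusted p = 0.000473), 1.87 with library totals and 1.26 with offsets for length and GC content. RPL5 had 925, 1129 and 1083 CPM in parental and 785, 729 and 703 CPM in mutant libraries, without overlap, and its log2 fold change was -0.50 (standard error 0.13, edgeR adjusted p = 0.00267). This call depended on the libraries and the scale. Without mutant replicate 1, 2 or 3 the adjusted p of RPL5 was 0.011, 0.0166 and 0.0144, with at least 10 counts required in every library it was 0.0426, and with library totals the log2 fold change was 0.43.

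RPS24 and RPS7, the other members of the standard ribosome that were higher, belong to the small subunit and take part in early processing of its ribosomal RNA. RPS24 had 158, 265 and 249.98 CPM in parental and 676, 576 and 508 CPM in mutant libraries, a log2 fold change of 1.39 (standard error 0.19, edgeR adjusted p = 1.76e-05) that came to 2.31 with library totals. It was 0.18 and did not pass with offsets for length and GC content (edgeR adjusted p = 0.198), while with offsets for length alone it was 1.16 and passed. Both fits used the deposited length of RPS24, 2712 bases, against 534 for its canonical transcript. RPS7, which also binds MDM2, had 252, 337 and 469 CPM in parental and 618, 606 and 580.3 CPM in mutant libraries. All mutant libraries were higher, though parental replicate 3 came close, and the log2 fold change was 0.77 (standard error 0.19, edgeR adjusted p = 0.00207), 1.68 with library totals and 1.18 with both offsets. RPL21, next in order, had 249, 398 and 344 CPM against 447, 399.99 and 391.5 CPM, with overlap, and did not pass (log2 fold change 0.32, edgeR adjusted p = 0.0833).

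The 4 members on the X chromosome had a median log2 fold change of -0.18, between that of all genes and that of the members, and 1 of them passed. RPS4X, the X-linked form of a small subunit protein, had 808, 981 and 964 CPM in parental and 1168, 1049 and 1116 CPM in mutant libraries, without overlap, and did not pass (log2 fold change 0.28, edgeR adjusted p = 0.0592). RPL10, near the catalytic centre and joined late in assembly of the large subunit, had 1305, 1605 and 1469 CPM against 1379, 1268 and 1445 CPM, with a log2 fold change of -0.10 that turned to 0.83 with library totals. RPL39, which lines the tunnel of the nascent peptide, had 379, 417 and 475 CPM against 383, 334 and 339 CPM, with a log2 fold change of -0.27 that turned to 0.65. RPL36A passed, with 456, 472 and 552 CPM against 336, 303 and 272 CPM and a log2 fold change of -0.70 (standard error 0.13), and it too turned to 0.22 with library totals. GLA, on the opposite strand of RPL36A, had 13.6% as many counts. By share of library counts RPS4X, RPL10 and RPL39 were higher in all mutant libraries than in any parental one, as were 64.3% of all tested genes.

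The paralogs named L or L1 replace or resemble a standard protein, and they are listed apart by their symbols. RPL39L, a copy of RPL39 known from testis and some cancers, had 5.90 to 18.6 estimated counts in parental and 236 to 321 in mutant libraries. This was 1.23, 0.430 and 0.932 CPM against 8.77, 8.55 and 8.61 CPM, and the log2 fold change of 3.28 (standard error 0.30, edgeR adjusted p = 4.26e-07) was the highest of the family, and 4.19 with library totals. Its level per length in mutant cells, 30.8, was still far below the 2340.5 of RPL39. RPL22L1, whose level is known to be restrained by RPL22, had 119, 104 and 150.04 CPM against 57.8, 59.4 and 49.9 CPM, a log2 fold change of -1.16 (standard error 0.15, edgeR adjusted p = 1.42e-05), and did not pass with library totals (-0.25). RPS27L, known as a target of p53, had 32.1, 38.6 and 38.2 CPM against 28.4, 28.7 and 25.1 CPM, and its log2 fold change of -0.41 did not pass (edgeR adjusted p = 0.0222) and turned to 0.52 with library totals. LACTB, which overlaps RPS27L on the opposite strand, had 40.0% as many counts. RPL26L1, with 13.5, 21.99 and 20.3 CPM against 21.8, 17.4 and 18.5 CPM, and RPL7L1, with 79.3, 91.3 and 103.6 CPM against 111, 111 and 115 CPM, did not pass either, with log2 fold changes of 0.05 and 0.30. RPL7L1 had a log2 fold change of -1.05 with offsets for length and GC content.

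Both subunits held mostly lower genes. Over all 82 tested members 78.0% were lower and 4.88% higher, and over all tested genes 32.7% and 41.6%. In the small subunit 27 of 32 tested genes were lower and 2 higher, with a median log2 fold change of -1.50, and in the large subunit 37 of 50 were lower and 2 higher, with a median of -1.22. The members known as genes of Diamond-Blackfan anaemia, an inherited failure of red cell production, held 16 that were lower and 3 that were higher, RPL11, RPS7 and RPS24, out of 19, with a median of -1.46. Of 8 surface proteins near the mRNA channels or factor sites, such as RPS3, RPS26 and RPL38, 7 were lower, with a median of -2.08. The shares that were lower among the anaemia genes and the surface proteins, 84.2% and 87.5%, lay near that of all members. The 29 members that host a small nucleolar RNA in an intron had a median of -1.22 and the 53 others one of -1.31.

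Among chromosomes with members, chromosome 19 had the lowest median, and members of high GC content were lower than those of low GC content. All 12 members on chromosome 19 were lower with a fold of at least 3, with a median log2 fold change of -2.42. All 1132 tested genes of that chromosome had a median of -1.24, with 60.3% of them lower and 470 of them lower with a fold of at least 3. The median of the 12 was -0.89 with offsets for length and GC content, and 10 of them passed. All 13 tested members with a GC content of at least 55% were lower, against 63.3% of all genes of that GC content, with a median of -2.84 against -1.22. With offsets for length and GC content the median of these 13 was -0.90 against -0.20, with 10 lower and 1 higher. The 24 members under 45% GC had a median of -0.90, with 17 lower and 1 higher, whereas all genes under 45% GC had a median of 1.65 and 7.35% of them were lower. Across the 82 members, Pearson's r between log2 fold change and GC content was -0.501 and Spearman's rho -0.513, and across 15833 tested genes they were -0.485 and -0.579. These are descriptions across genes of the same 6 libraries, which share depth and library preparation, and genes are not independent replicates. With the offsets, r over 77 members without the paralogs went from -0.575 to 0.309. The part of GC content in the fold changes of the members was not tested apart from this.

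**Figure D4:**
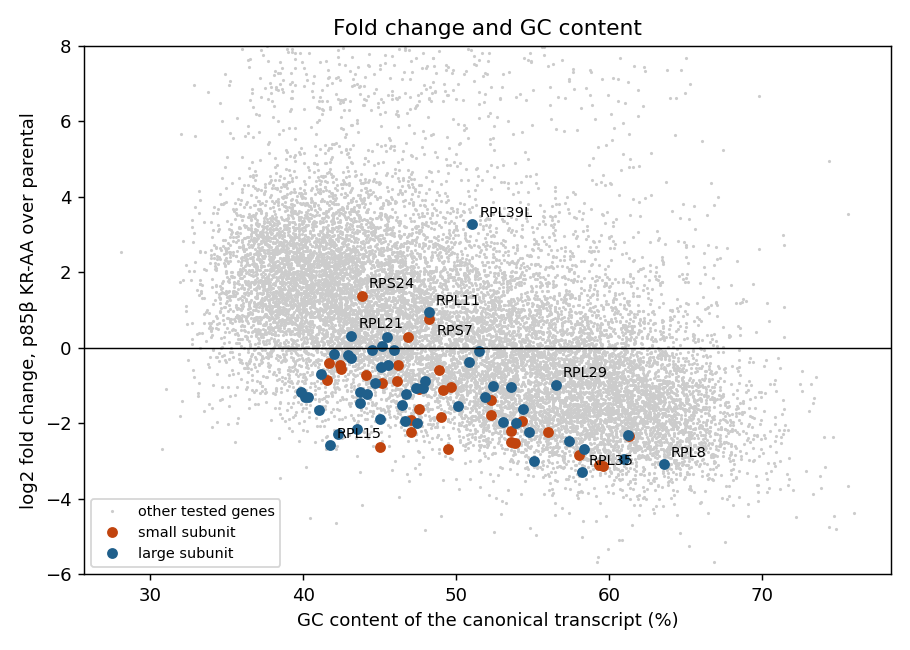
Log2 fold change of p85β KR-AA over parental cells against the GC content of the canonical transcript in percent, with ribosomal protein genes of the small subunit in orange, of the large subunit in blue and 15751 other tested genes in grey, of which 280 lie beyond the vertical axis. Members of 55% GC or more lie at a median of -2.84 and those under 45% at -0.90, and RPL39L at 3.28, RPS24, RPL11 and RPS7 stand above the other members.

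FAU, RACK1 and RPL36AL, parts of the cytosolic ribosome whose symbols fall outside the rule, were lower as well on the TMM scale. FAU, which encodes the small subunit protein eS30 fused to a ubiquitin-like protein, went from 1267, 1441 and 1203 CPM to 212, 196 and 224 CPM, a log2 fold change of -2.63 (standard error 0.13). RACK1, a scaffold on the head of the small subunit, had a log2 fold change of -0.92 (standard error 0.12), which came to 0.00 with library totals. RPL36AL, an expressed copy of RPL36A, had one of -0.57 (standard error 0.13), which turned to 0.36 with library totals.

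The lists of genes that act on the ribosome are given beside the members, and no difference between lists was tested. Of 38 cytosolic translation factors, 15 were lower and 16 higher, with a median log2 fold change of -0.02, from EIF6, which keeps the subunits apart, at -2.73 to EIF2S3, a subunit of the factor that brings the initiator tRNA, at 2.71. Of 48 ribosome biogenesis factors, 22 were lower and 17 higher, with a median of -0.38, from RRP9 at -3.74 to UTP20 at 3.52, both of the small subunit processome. Of 10 dedicated chaperones of ribosomal proteins and related carriers, 6 were lower and 1 higher, with a median of -0.98, from GRWD1 at -3.38 to NAP1L1 at 1.74. Of 23 regulators and growth signalling genes, 5 were lower and 12 higher, with a median of 0.69, from RPS6KB2, an S6 kinase, at -2.86 to MDM2 at 2.95. NAP1L1 and MDM2 turned to -0.35 and -0.31 with offsets for length and GC content, where UTP20 did not pass. The shares of all genes that were lower and higher, 32.7% and 41.6%, are the background to these counts. In the fit with both offsets, 22 translation factors were lower and 6 higher with a median of -0.58, 30 biogenesis factors lower and 5 higher with a median of -0.80, 7 of 10 chaperones lower with a median of -1.16, and 8 regulators lower and 5 higher with a median of -0.14, against shares of all genes of 37.1% and 26.8%.

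**Figure D5:**
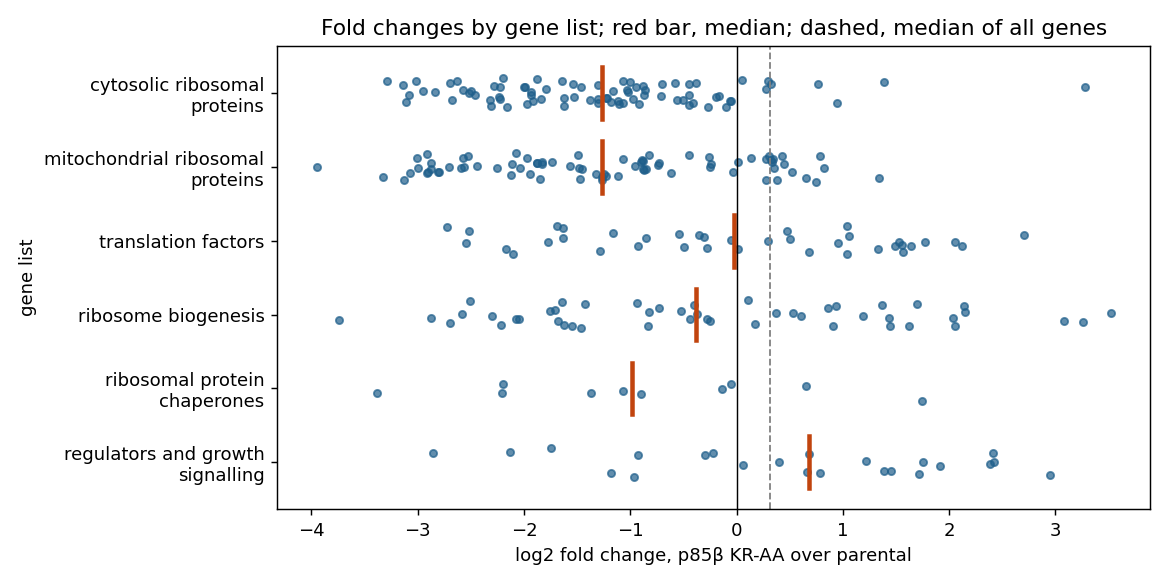
Log2 fold change of p85β KR-AA over parental cells for each tested gene of 6 lists, with 1 point per gene, a red bar at the median of the list and a dashed line at the median of all genes. The cytosolic and the mitochondrial ribosomal proteins both have a median of -1.27, while the translation factors are at -0.02.

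Reads of ribosomal protein mRNAs can be counted on their annotated pseudogenes, of which the table holds 1596 of any pseudogene type. These took 0.543% ± 0.0871 of library counts in parental and 0.147% ± 0.00637 in mutant cells (SD, n = 3 each), or 3.22% and 1.68% of the counts of the members. Adding the counts of each member's pseudogenes to its own before the test changed no call among the named genes.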

How the data were processed

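Total RNA was extracted with TRIzol and made into libraries with a TruSeq RNA kit. The study's methods give SeqPrep and Sickle for trimming of the paired-end reads. The submitters' processing notes name HISAT2 2.1.0, RSEM 1.3.1, DESeq2 1.24.0 and the build hg18, without their roles. The deposited table holds estimated counts of Ensembl genes as made by the authors, without normalization, and a gene length. The design had assumed whole counts, so the estimated counts were rounded.

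Genes were filtered with filterByExpr (minimum count 10, minimum total 15) and tested with edgeR 4.0.16 in R 4.3.3 (TMM, quasi-likelihood F test, Benjamini-Hochberg adjustment over 16059 genes), without covariates. Same-numbered replicates had correlations of deviations of -0.204, 0.176 and -0.0575, so the numbers do not pair the libraries. Counts of replicates differed by 4.29 to 39.1 times sampling noise (chi-square per degree of freedom), so none was a copy. Symbols, positions and GC content came from GENCODE 44 lifted to GRCh37 for 56745 of 58884 genes. Offsets for length and GC content were robust splines with 5 degrees of freedom per library, and the code was tested on simulated data. Alternatives used DESeq2 1.42.0, library totals, other filters, the replicate block and each library left out.

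Genes with values are the paralogs, P stalk, 5S and X-linked members, the 5 lowest, 5 highest and 5 most abundant per length, the parts outside the symbol rule, PIK3R2, and the extremes of each other list with an average log2 CPM of 3 or more. Others, such as RPS6, RPS3, RPS26, RPL38, RPL37 and the marker genes, are named as examples. Members and lists were chosen with earlier results of these data known. BOP1 was not analysed here, and 1 gene among the parts outside the symbol rule is not reported here. Intervals for floors cover counting error only.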

Additional observations from a re-analysis of the deposited data

How the results depend on the processing

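The count of lower members stayed at 46 to 68 in every alternative but library totals, where it was 39 with 19 higher. At the thresholds of the study, library totals left 12 lower and 4 higher members and a median log2 fold change of -0.33. Length offsets gave 15 higher members, 18 lower and 3 higher at the thresholds of the study, and a median of -0.60. Requiring 10 counts in every library removed RPL39L, the only higher member at those thresholds by edgeR or DESeq2, which left 0, and moved the median to -1.11. Offsets for length and GC content gave a median of -0.99. Leaving out each library in turn gave 60 to 68 lower and 4 higher members, 32 to 35 lower and 1 higher at the thresholds of the study, and medians of -1.32 to -1.23. The replicate block gave 62 lower and 4 higher members and a median of -1.26, and there RPL5 lost its call (adjusted p = 0.0121, edgeR). Its prior degrees of freedom were infinite, as without a filter. The share of library counts kept its direction in 9 alternatives, at ratios of 0.504 to 0.695.

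Of 622 fits of 39 named genes, 565 kept direction and call, 13 lost a call, 19 gained one and 25 changed sign. The log2 fold changes that changed sign with library totals were RPS27L at 0.52, RPL5 at 0.43, RPL10 at 0.83, RPL36A at 0.22, RPL39 at 0.65, RPL36AL at 0.36 and RACK1 at 0.004. With length offsets they were RPL7L1 at -0.48, RPS27L at 0.59, RPL5 at 0.30, RPL10 at 0.54, RPL36A at 0.17, RPL39 at 0.79 and RPL36AL at 0.40. With offsets for length and GC content they were RPL7L1 at -1.05, RPL10 at 0.50, RACK1 at 0.067, MDM2 at -0.31, NAP1L1 at -0.35 and MRPS35 at -0.30. RPL10 was at 0.10 with at least 10 counts in every library. RPL26L1, at 0.05 in the fit reported, was at -0.014 with DESeq2, -0.066 with RLE factors, and from -0.148 (without parental replicate 1) to 0.158 (without parental replicate 2) with 1 library left out, with -0.039 without p85β KR-AA replicate 1. The cause of these changes was not tested.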

Other observations

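The ribosome of mitochondria, which translates the few mRNAs of the mitochondrial genome, had a median like that of the cytosolic ribosome. Of its 78 nuclear-encoded protein genes, 55 were lower in p85β KR-AA cells on the TMM scale, against 32.7% of all genes, and 4 higher, against 41.6%. Their median log2 fold change was -1.27, against 0.32 for all genes. With library totals 36 were lower, against 17.9% of all genes on that scale, and 20 higher, against 57.9%. MRPL54 had 161, 242 and 138 CPM in parental and 10.4, 11.4 and 13.3 CPM in mutant libraries, a log2 fold change of -3.95 (standard error 0.22). MRPS35 had 19.3, 20.03 and 22.1 CPM in parental and 40.2, 38.9 and 29.6 CPM in mutant libraries, a log2 fold change of 0.82 (standard error 0.16) that turned to -0.30 with offsets for length and GC content. Among the 41 ribosomal protein pseudogenes with enough counts to be tested, 21 were lower on the TMM scale, against 32.7% of all genes, and 6 higher, against 41.6%.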
